A study of Mus musculus with 16 samples.

Results

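Genes of the thick ascending limb of the loop of Henle and of the distal convoluted tubule were followed across 16 microarrays of whole mouse kidney. The list holds 32 genes chosen by name for their known place in these segments. The choice was made with earlier results of these data known, so shares of members set beside shares of all genes are descriptions. A probe was taken for a gene when its RefSeq accession belonged to that gene, which gave 43 probes for 31 of the 32 genes, among 56605 probes on the array. No probe was tied to Klhl3 by an accession. After a filter on dim probes (well above background in the sample channel on at least 4 of 16 arrays), 29 of the 32 genes were measured, among 15646 genes in all. Trpm6 and Trpv5 were not well above background on any of the 16 arrays.

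All kidneys came from C57BL/6 embryos at embryonic day 17.5, in 4 genotype groups with 4 arrays each. Controls were wild type for both genes, and their titles speak of kidney pairs. The other 3 groups shared a homozygous conditional deletion of Ezh2 in Six2-positive nephron progenitors and differed in germline Ezh1: wild type (the Ezh2-KO group), 1 allele lost (the Ezh1-het group) or both alleles lost (the double knockout). The Ezh2 deletion was thus directed to the progenitors and the nephron cells they form, whereas the germline loss of Ezh1 applied to every cell of the embryo. Ezh1 and Ezh2 are the alternative enzymes of Polycomb repressive complex 2, which methylates lysine 27 of histone H3 on repressed genes. Samples were labelled with Cy5, and Cy3-labelled RNA of control 1 served as the common reference on every array, so the control 1 array set that RNA against itself. No dyes were swapped. Values below are log2(Cy5/Cy3), so 0 is the level of the control 1 RNA. Within each group replicates 1 and 2 lay on slide 1, replicates 3 and 4 on slide 2, and scans were split the same way.

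The labels were checked on the deleted genes. The Ezh1 probe averaged -0.08 ± 0.26 in control, 0.05 ± 0.33 in the Ezh2-KO group, -1.13 ± 0.20 in Ezh1-het kidneys and -4.55 ± 0.08 in double knockout kidneys (SD, n = 4). Of the 5 Ezh2 probes, A_51_P248067 averaged 0.09 ± 0.43 in control kidneys and -3.32 ± 0.34, -3.43 ± 0.31 and -3.09 ± 0.28 in the groups with the deletion (SD, n = 4), and the other 4 had group means between -0.45 and 0.29. Signal in Cy5 at the 75th percentile was between 5.21 (control 2) and 16.6 (Ezh2-KO 4) times background, and the number of arrays limits the precision. The highest correlation between 2 arrays was 0.83, so no array repeated another.

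The thick limb takes up sodium, potassium and chloride through the cotransporter Slc12a1 on its luminal side, returns potassium to the lumen through Kcnj1, and lets chloride leave through channels that need the subunit Bsnd. The voltage this builds drives calcium and magnesium between the cells through claudins. The distal convoluted tubule next to it takes up sodium chloride through Slc12a3 under the control of Wnk kinases and trims calcium and magnesium. Both segments form from Six2-positive progenitors and mature late in kidney development.

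Promoter windows of the listed genes were read from RefSeq (assembly GRCm38.p6), each holding the 250 bases before a transcription start. The table held 28 of the 32 genes in 41 windows. It was searched on both strands for AAGGTCA, the motif of the estrogen-related receptors to which Esrrb and Esrrg belong. AAGGTCA lay in 2 of 41 windows (4.88%), those of Kcnj16 and S100g, against 4.08% of all 32851 windows. A match is a run of letters in this window and not a shown binding site. Both windows are printed because they hold the matches, which are in capitals, and because their genes belong to those with the widest spread below. TGACCTT is AAGGTCA read on the other strand. Kcnj16 lies at chr11:110967783-110968032 on the plus strand (1 of 4 listed starts), and S100g at chrX:162964600-162964849 on the minus strand.
Kcnj16: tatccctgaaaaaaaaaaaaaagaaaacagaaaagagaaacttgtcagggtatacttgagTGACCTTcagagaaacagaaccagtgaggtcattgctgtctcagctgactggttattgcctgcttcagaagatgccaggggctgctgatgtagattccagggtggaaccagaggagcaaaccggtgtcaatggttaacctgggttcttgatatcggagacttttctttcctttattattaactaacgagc
S100g: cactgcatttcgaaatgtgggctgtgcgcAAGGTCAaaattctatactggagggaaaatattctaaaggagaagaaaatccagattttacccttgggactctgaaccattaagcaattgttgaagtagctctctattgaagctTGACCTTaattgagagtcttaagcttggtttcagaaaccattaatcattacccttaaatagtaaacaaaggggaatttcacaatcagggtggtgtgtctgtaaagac
Kcnj16 held the motif once, and S100g held it once on each strand.

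The members spread more than most genes did, both over all arrays and around the group means. The range over the 16 arrays, which includes differences between groups, was above 2 (log2) for 13 of the 29 measured members, against 3.01% of all genes. These 13 were Slc12a1 with the widest range (4.40), Tfap2b (3.97), Kcnj1 (3.89), Fxyd2, Sostdc1, Kcnj16, S100g, Esrrg, Bsnd, Cldn10, Umod, Ppargc1a and Calb1. Calb1 lay just inside that limit at 2.003 and Kcnj10 just outside at 1.998, while 11 members ranged by less than 1. The median residual SD around the group means was 0.34 for the measured members, 0.84 for those 13 and 0.16 for all genes. The 13 were picked by their range, so their SD is a description.

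The spread followed arrays rather than single genes. Control 3 was the lowest control for 23 of the 29 members, whereas it was the lowest control for 29% of all genes. Ezh2-KO 1 was the lowest of its group for 18 of 29 members and Ezh2-KO 4 the highest for 20 of 29, against 35.2% and 33.7% of all genes. Ezh1-het 1 was the highest of its group for 20 of 29 members (30.8% of all genes) and double knockout 4 the lowest for 19 of 29 (24.5%). The mean over the 29 members was -1.12 on control 3, against -0.01, 0.04 and -0.20 on the other controls, and it was -0.99 on Ezh2-KO 1, against -0.53, -0.21 and 0.23 on the others of that group. It lay between -0.17 and 0.30 on the Ezh1-het arrays and between -1.08 and -0.53 on the double knockout arrays.

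**Figure D1:**
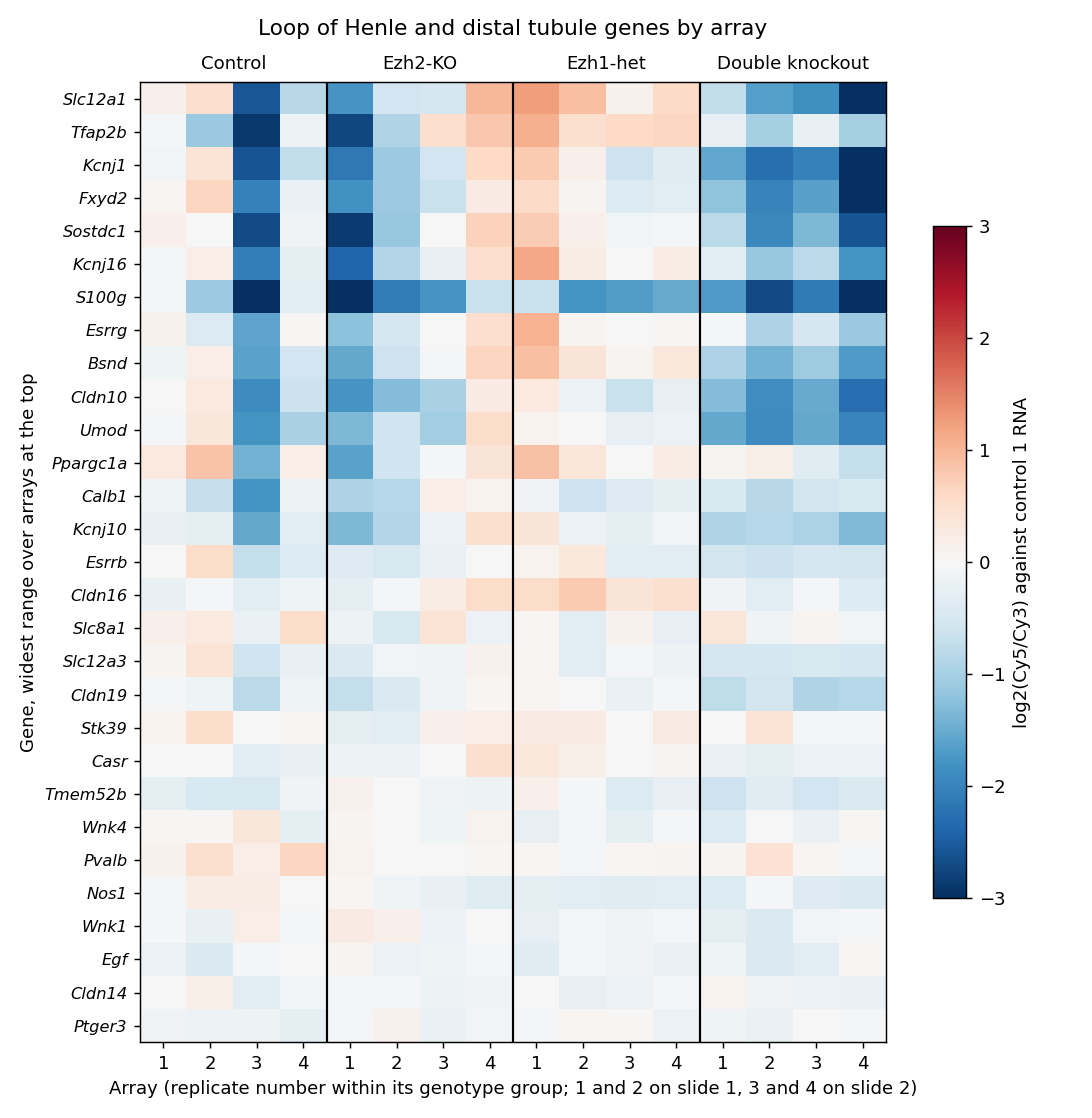
Heat map of log2(Cy5/Cy3) against control 1 RNA for the 29 measured genes (rows, widest range over arrays at the top) on the 16 arrays (columns, by genotype group and replicate number), with colours capped at -3 and 3. The upper rows are blue on control 3 and on Ezh2-KO 1, and most of them are blue on the double knockout arrays. Most upper rows are pale or red on the Ezh1-het arrays, but S100g is blue there. Ppargc1a, Esrrg and Tfap2b are pale on some double knockout arrays. The lower rows hardly differ between arrays.

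Of the 6 comparisons, the most members were without overlap between the double knockout and the Ezh1-het group, which differ by the second Ezh1 allele. For 16 of the 29 measured members all 4 double knockout arrays lay below all 4 Ezh1-het arrays, where 9.83% of all genes did so, and for 0 members the order was the opposite (2.83% of all genes). The 16 were Umod, Slc12a1, Slc12a3, Kcnj1, Kcnj10, Kcnj16, Cldn10, Cldn16, Cldn19, Bsnd, Sostdc1, Fxyd2, Tfap2b, Esrrb, Esrrg and Casr. The median difference over the 29 members was -0.58, against -0.03 over all genes, with -0.68 on slide 1 and -0.64 on slide 2. In the limma fit of all 16 arrays with Benjamini-Hochberg adjustment over all genes, 1 of the 29 members was called at 0.05 (0.377% of all genes were), namely Cldn16. That fit shares 1 estimate of each gene's spread among the 4 groups, including the wide spread of the control and Ezh2-KO arrays. Fitted on the 8 arrays of these groups alone, the same 16 members were called lower and none higher, against 5.61% of all genes called lower. These are the arrays on which the 16 were seen not to overlap, so this fit is not separate support. The like fit of the double knockout and control arrays alone called 0 members. Casr passed the filter on dim probes only through its Ezh1-het arrays and Cldn16, Slc12a3 and Casr were above background on 0 of 4 double knockout arrays, and among the 19 members above background on all 16 arrays 10 were without overlap (9.38% of all genes under that filter). Over the same arrays the mean of 12 proximal tubule markers was -0.35 to 0.20 in Ezh1-het and -2.35 to -1.13 in double knockout kidneys, and its part in the members' values was not tested. In whole kidneys fewer cells of a segment and less RNA per cell cannot be told apart.

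Umod encodes uromodulin, the glycoprotein that the thick limb sheds into urine. Umod read -0.04, 0.34, -1.79 and -0.97 on control arrays 1 to 4 and -1.35, -0.60, -1.04 and 0.54 on Ezh2-KO arrays 1 to 4. It read 0.11, -0.02, -0.24 and -0.17 on the Ezh1-het arrays and -1.53, -1.88, -1.54 and -1.99 on the double knockout arrays. The double knockout arrays were all below the Ezh1-het and Ezh2-KO arrays, but control 3 reached into their range. The double knockout minus Ezh1-het difference was -1.66 (SE 0.40, limma adjusted p = 0.0848 with 16 arrays; SE 0.12, adjusted p = 7.73e-05 with 8 arrays). Both slides gave a similar size, -1.75 on slide 1 and -1.56 on slide 2.

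Slc12a1 is the sodium-potassium-chloride cotransporter that loop diuretics block. It read 0.15, 0.50, -2.57 and -0.84 in control 1 to 4, -1.77, -0.58, -0.50 and 1.00 in the Ezh2-KO group, 1.26, 0.91, 0.13 and 0.58 in Ezh1-het and -0.74, -1.66, -1.83 and -3.14 in double knockout kidneys. Every Ezh1-het array was above 0 and every double knockout array below 0, while the control and Ezh2-KO arrays covered nearly the whole range. The difference between those groups was -2.56 (SE 0.65, limma adjusted p = 0.0929 with 16 arrays; SE 0.40, adjusted p = 0.00270 with 8 arrays), and the probe was above background on 3 of the 4 double knockout arrays. Kcnj1, the potassium channel that recycles potassium to the lumen, read -0.07, 0.42, -2.59 and -0.74 in control, -2.14, -1.10, -0.57 and 0.60 in the Ezh2-KO group, 0.80, 0.15, -0.61 and -0.35 in Ezh1-het and -1.56, -2.27, -2.04 and -3.10 in double knockout kidneys. It followed the same arrays as Slc12a1, low on control 3 and Ezh2-KO 1, and differed by -2.24 between double knockout and Ezh1-het (SE 0.61, limma adjusted p = 0.107 with 16 arrays; SE 0.33, adjusted p = 0.00193 with 8 arrays).

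The basolateral side of tubule cells was covered by 4 members, whose values come from whole kidneys and are not tied to 1 segment. Bsnd, the barttin subunit of the chloride channels, ranged from 0.08 to 0.90 in Ezh1-het and from -1.70 to -0.93 in double knockout kidneys. Fxyd2, a regulatory subunit of the sodium pump, averaged -0.02 ± 0.45 and -1.96 ± 0.76 (SD, n = 4). Kcnj16 and Kcnj10, which form a potassium channel together, ranged from -0.01 to 1.17 and from -0.29 to 0.38 in Ezh1-het kidneys, and from -1.78 to -0.35 and from -1.31 to -0.86 in double knockout kidneys. None of the 4 overlapped between these groups, and their differences were -1.70 for Bsnd, -1.94 for Fxyd2, -1.42 for Kcnj16 and -0.96 for Kcnj10. Their limma adjusted p-values were 0.0818 to 0.256 with 16 arrays and 0.000589 to 0.0129 with 8 arrays. In control kidneys the 4 ranged as widely as -2.07 to 0.21 (Kcnj16) or -2.02 to 0.64 (Fxyd2), which took in the double knockout means of those genes.

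Of the claudins, Cldn16, which with Cldn19 makes the pore for calcium and magnesium between thick limb cells, read -0.23, -0.04, -0.31 and -0.13 in control, -0.30, -0.06, 0.23 and 0.55 in the Ezh2-KO group, 0.56, 0.78, 0.38 and 0.48 in Ezh1-het and -0.10, -0.33, -0.07 and -0.41 in double knockout kidneys. The Ezh1-het arrays lay above every control and double knockout array, and control and double knockout overlapped. Cldn16 fell between Ezh1-het and double knockout by 0.77 on the log2 scale (SE 0.15, limma adjusted p = 0.0335, n = 4), which was at least 1.71-fold. The words "at least" refer to the background: the probe was above it on 4 of 4 Ezh1-het, 2 of 4 control, 2 of 4 Ezh2-KO and 0 of 4 double knockout arrays. The call was lost with any 1 of the 8 arrays left out (adjusted p 0.0505 to 0.152), and with the replicate number as a block (adjusted p = 0.0841). The software's own ratio gave a larger difference of -2.87 with adjusted p = 0.111.

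Cldn19 averaged -0.05 ± 0.11 in Ezh1-het and -0.77 ± 0.16 in double knockout kidneys (SD, n = 4), a difference of -0.72 (SE 0.17, limma adjusted p = 0.0818). Cldn10, which lets sodium pass between thick limb cells, averaged -0.20 ± 0.39 and -1.74 ± 0.43 (SD, n = 4), a difference of -1.54 (SE 0.44, limma adjusted p = 0.127). Neither overlapped between these groups. Cldn14, which blocks the pore of Cldn16 and Cldn19, averaged -0.11 ± 0.12 and -0.10 ± 0.14 (SD, n = 4), and its arrays overlapped in each of the 6 comparisons, though its probe was above background on 7 of 16 arrays. Casr, the calcium-sensing receptor, ranged from 0.01 to 0.31 in Ezh1-het and from -0.29 to -0.18 in double knockout kidneys, where it was not well above background. Its level in the double knockout was lower by a difference of -0.35 that was not called with 16 arrays (SE 0.13, limma adjusted p = 0.218). By the background bound this was at least 1.27-fold, a figure that carries no sampling error. The other Casr probe was above background on 0 of 16 arrays.

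**Figure D2:**
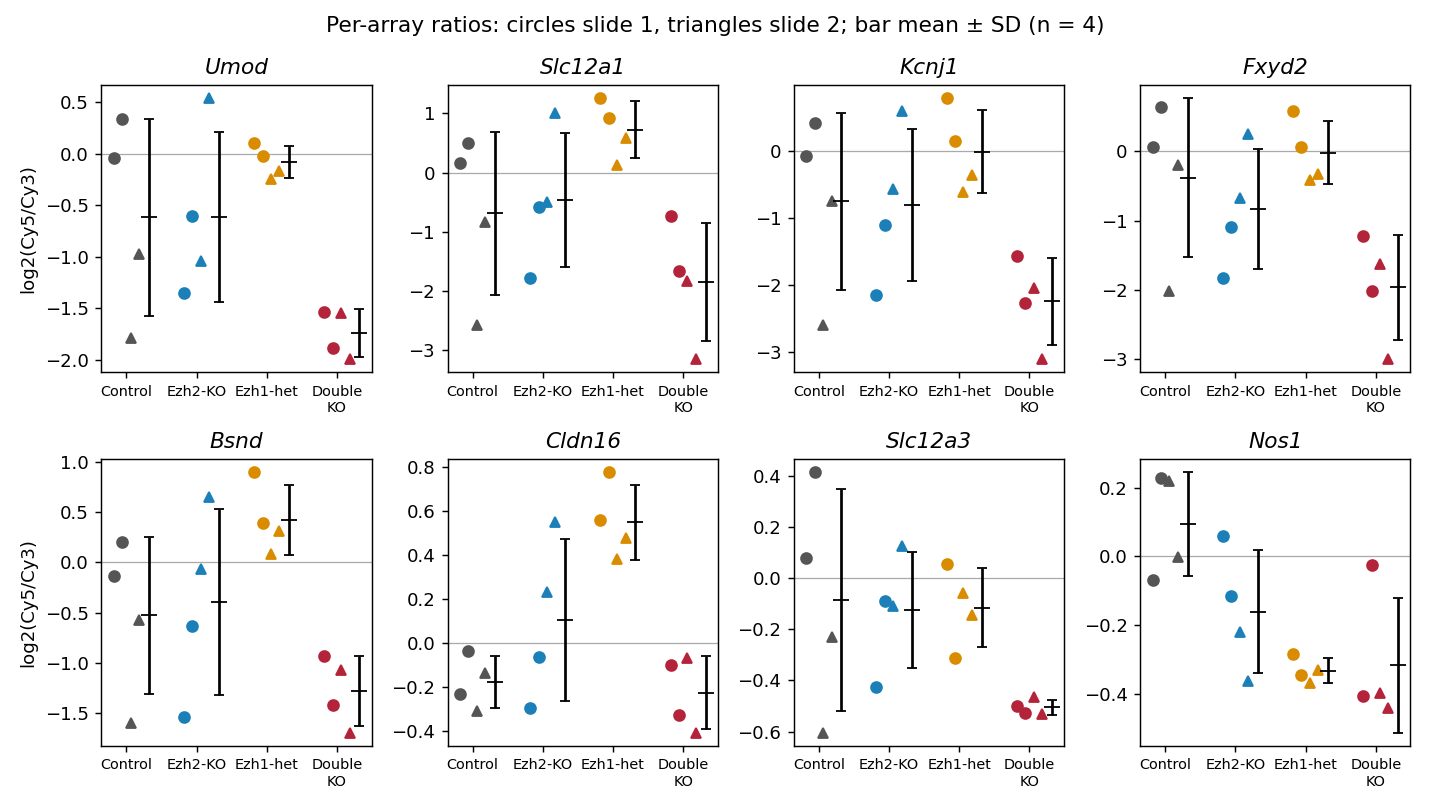
Log2(Cy5/Cy3) of 8 genes on each array by genotype group (circles slide 1, triangles slide 2; horizontal tick and bar, mean ± SD, n = 4; each panel has its own vertical scale). The double knockout arrays sit below the Ezh1-het arrays in every panel but that of Nos1, and control 3 (a triangle) is the lowest control for every gene shown but Nos1.

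Of the genes of the distal convoluted tubule, Slc12a3, the sodium-chloride cotransporter that thiazides block, read 0.08, 0.42, -0.60 and -0.23 in control, -0.42, -0.09, -0.11 and 0.13 in the Ezh2-KO group, 0.06, -0.31, -0.06 and -0.14 in Ezh1-het and -0.50, -0.53, -0.46 and -0.53 in double knockout kidneys. The double knockout arrays lay close together and below every other array but control 3, and the probe was above background on none of them. Its level was lower than in Ezh1-het kidneys by a difference of -0.39 (SE 0.17, limma adjusted p = 0.305 with 16 arrays and 0.0215 with 8). By the background bound this was at least 1.31-fold, a figure that carries no sampling error. S100g, a small calcium-binding protein of the distal tubule, averaged -1.41 ± 0.51 in Ezh1-het and -2.45 ± 0.68 in double knockout kidneys (SD, n = 4) with overlapping arrays. It was below 0 on all 16 arrays. Pvalb, a calcium buffer of the early distal convoluted tubule, ranged from 0.14 to 0.64 in control kidneys, above all Ezh2-KO arrays (-0.02 to 0.10) and all Ezh1-het arrays (-0.03 to 0.08), and from -0.06 to 0.43 in double knockout kidneys. Calb1, a calcium-binding protein of the distal and connecting tubule and also of the collecting duct, averaged -0.69 ± 0.78 in control, -0.38 ± 0.60 in the Ezh2-KO group, -0.34 ± 0.22 in Ezh1-het and -0.57 ± 0.19 in double knockout kidneys (SD, n = 4), and overlapped in each comparison. Slc8a1, the gene of the sodium-calcium exchanger, and Egf, the growth factor made in this segment, also overlapped between double knockout and Ezh1-het (differences 0.16 and -0.03). The same held for Tmem52b, a membrane protein, at -0.36 (SE 0.12, limma adjusted p = 0.172). The Slc8a1 value came from a probe on a noncoding RNA record of the gene. Its probes on mRNA records failed the filter, above background on 2 of 16 and 0 of 16 arrays, so the exchanger's mRNA was not measured.

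The kinases Wnk1, Wnk4 and Stk39, which form a cascade that phosphorylates Slc12a1 and Slc12a3, had differences of -0.10, 0.02 and -0.12 between double knockout and Ezh1-het, each smaller than its SE of 0.11 to 0.15. On the brightest probe of each gene their group means lay between -0.21 and 0.19 in the 4 groups. For Wnk1 the probes did not all give the same reading: A_55_P2643836 was lower in Ezh1-het than in control kidneys (-0.42, SE 0.12, limma adjusted p over probes = 0.0449), whereas the brightest probe, which stood for the gene, differed by -0.08. With the mean of its 3 probes Wnk1 was called lower in Ezh1-het than in control kidneys (-0.25, limma adjusted p = 0.0478). For Ezh2-KO against control the 3 probes gave -0.31, -0.44 and, on the brightest, 0.08. Of the other 5 genes with several probes past the filter, Esrrg, Ppargc1a, Stk39 and Tfap2b gave the same sign on both probes between double knockout and Ezh1-het (for Tfap2b -1.31 on the brighter and -0.73 on the dimmer), and Wnk4 gave 0.02 and -0.14.

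Among the regulators, Tfap2b, a transcription factor needed for distal nephron development, averaged 0.69 ± 0.26 in Ezh1-het and -0.61 ± 0.44 in double knockout kidneys (SD, n = 4) with no overlap. Control 3 (-2.90) and Ezh2-KO 1 (-2.72) were far below both. Tfap2b differed by -1.31 between double knockout and Ezh1-het (SE 0.66, limma adjusted p = 0.414 with 16 arrays; SE 0.20, adjusted p = 0.00218 with 8). Esrrb and Esrrg, orphan receptors that drive mitochondrial and transport genes, differed by -0.51 and -0.93 with no overlap (limma adjusted p = 0.304 and 0.298 with 16 arrays, 0.0495 each with 8), and Esrrg stood at 1.03 on Ezh1-het 1, against 0.02 to 0.08 on the others of that group. Ppargc1a, their coactivator, overlapped between the groups, with a difference of -0.58 (SE 0.44). Sostdc1, a secreted antagonist of BMP and Wnt signals, averaged 0.19 ± 0.40 in Ezh1-het and -1.66 ± 0.77 in double knockout kidneys (SD, n = 4) with no overlap. Ptger3, a prostaglandin receptor, had differences of at most 0.14 in size against control, on a probe above background on 6 of 16 arrays.

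Against control kidneys 0 to 2 members passed the test in each genotype. In Ezh1-het kidneys 2 of the 29 were called (7.81% of all genes), Cldn16 higher and Nos1 lower. Cldn16 rose by 0.73 (SE 0.15, limma adjusted p = 0.00890, n = 4), with 0.80 on slide 1 and 0.65 on slide 2, and the call held with any 1 array of these groups left out. The software's own ratio gave 2.35 with adjusted p = 0.0581, and neither slide alone reached the threshold. Members without overlap were Cldn16 and Tfap2b on the higher side (12.6% of all genes) and Pvalb and Nos1 on the lower side (5.22%). The median difference of the 29 members was 0.27, against 0.05 over all genes, and 20 of the 29 were higher, against 60.6% of all genes. That median was 0.06 on slide 1 and 0.35 on slide 2, and it was 0.03 without control 3.

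Nos1, the nitric oxide synthase of the macula densa, the sensor plaque at the end of the thick limb, read -0.07, 0.23, 0.22 and 0.00 in control, 0.06, -0.12, -0.22 and -0.36 in the Ezh2-KO group, -0.29, -0.35, -0.37 and -0.33 in Ezh1-het and -0.41, -0.02, -0.40 and -0.44 in double knockout kidneys. The Ezh1-het arrays lay below every control, and 3 of the 4 double knockout arrays did, with double knockout 2 inside the control range. Nos1 fell by 0.43 in Ezh1-het (SE 0.11, limma adjusted p = 0.0264) and by 0.41 in double knockout kidneys (SE 0.11, limma adjusted p = 0.0375), both set against the same 4 controls. Its probe was dim, above background on 4 of 4 control and 4 of 4 Ezh2-KO but on 1 of 4 Ezh1-het and 2 of 4 double knockout arrays. The Ezh1-het call was lost without control 2, control 3, or Ezh1-het 2, 3 or 4 (adjusted p 0.0616 to 0.0744). The double knockout call was lost without control 2, 3 or 4 or double knockout 1, 3 or 4 (adjusted p 0.0504 to 0.122), and at 0.126 when only those 2 groups were fitted.

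In double knockout against control kidneys Nos1 was the only member called, 1 of 29 (4.62% of all genes), and 0 members were without overlap on the lower side (2.99% of all genes) or the higher side (6.35%). Of the 29 members 26 had a lower mean in the double knockout, and the median difference was -0.24, against 0.0063 over all genes. The count depended on control 3. Without it, 7 members were called and all were lower, against 2.15% of all genes called lower: Umod (-1.51, limma adjusted p = 0.0191), Slc12a3 (-0.59, 0.0222), Kcnj1 (-2.11, 0.0255), Cldn10 (-1.63, 0.0190), Cldn19 (-0.66, 0.0134), Fxyd2 (-2.13, 0.00886) and S100g (-1.96, 0.0367). Nos1 was then no longer called (-0.37, 0.0786), and the median moved to -0.56. With control 2 left out as well as control 3, 1 member was called, Cldn19 (-0.68, limma adjusted p = 0.0483), and the median was -0.43. With control 3 and Ezh2-KO 1 left out and control 2 kept, 10 members were called lower, against 2.91% of all genes. Leaving out these arrays, both low for the members, was chosen after seeing the data, so that count is a description. Control 3 was not left out in the values given elsewhere, since the labels give no reason to.

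In Ezh2-KO against control kidneys 0 of the 29 members were called by limma (3.08% of all genes) and 3 had an unadjusted p under 0.05 (21.3% of all genes). Pvalb was the only member without overlap, on the lower side (3.31% of all genes). The slides went opposite ways: 23 of 29 members had opposite signs on them, and the members' median was -0.61 on slide 1 against 0.53 on slide 2. The low arrays, control 3 and Ezh2-KO 1, lie on different slides. Between the Ezh2-KO group and the other deletion groups 0 members were called (0.0575% of all genes against Ezh1-het, and 0.914% against double knockout). At an unadjusted p under 0.05 there was 1 member against Ezh1-het (7.37% of all genes), and there were 10 against double knockout (12.7%). The Ezh1-het group was above Ezh2-KO by a median of 0.25, made of 0.65 on slide 1 and -0.09 on slide 2. The double knockout was below Ezh2-KO by a median difference of -0.31, made of -0.05 on slide 1 and -0.64 on slide 2, with opposite signs on the slides for 14 of 29 members. In that comparison 5 members were lower without overlap (4.48% of all genes): Umod, Slc12a3, Tmem52b, Esrrb and Casr. A test of the difference between slides called 0 members in each of the 6 comparisons by limma. Among all 15646 genes it called only 0 to 3 per comparison, with 2 arrays per group on each slide. It therefore cannot show that the slides were alike.

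**Figure D3:**
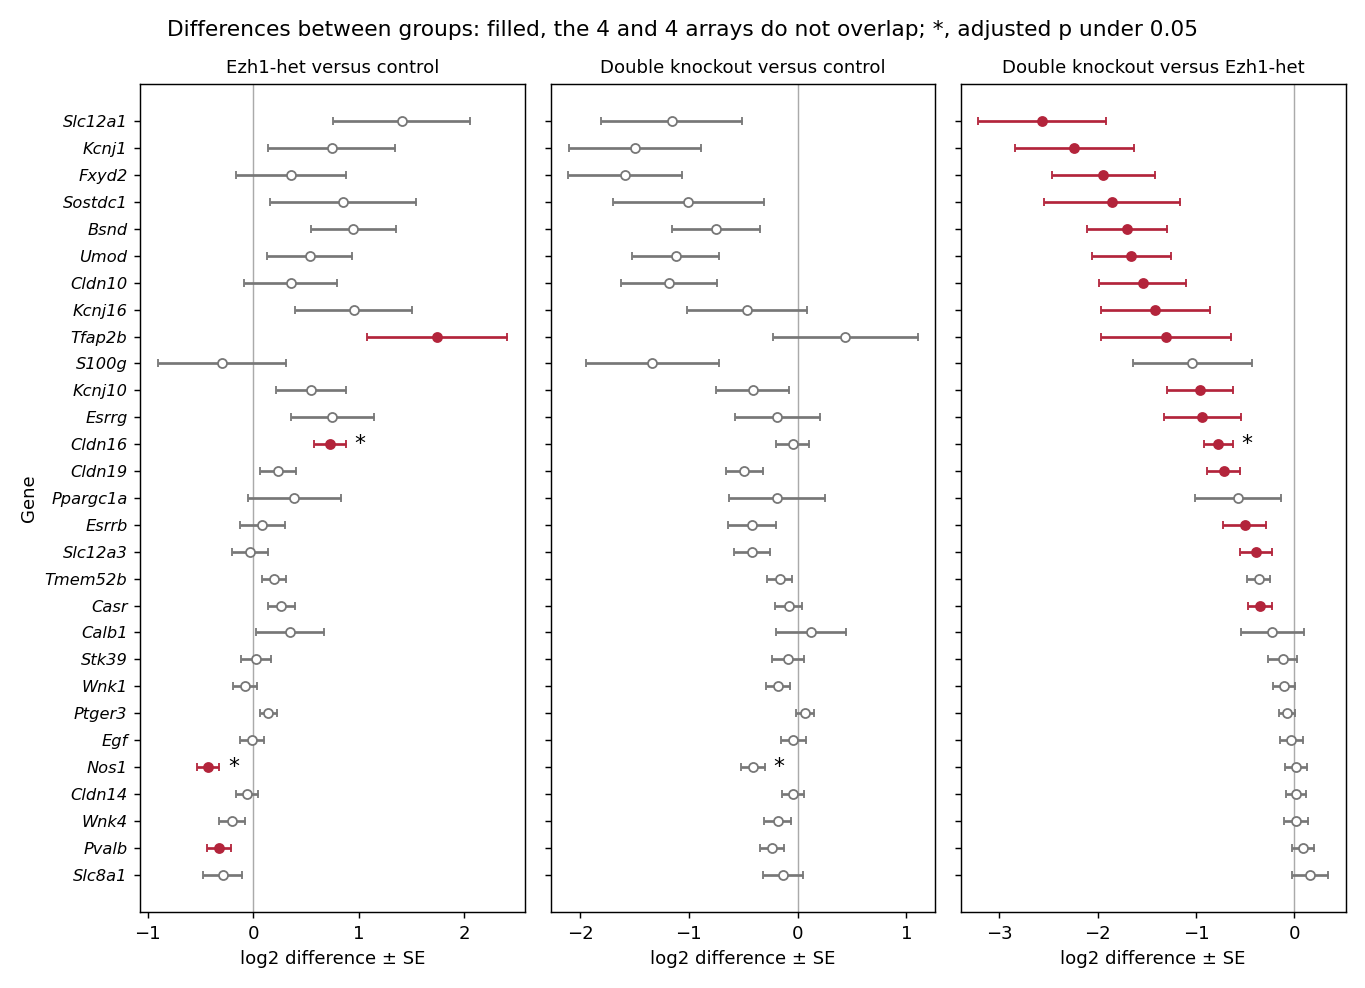
Log2 difference ± SE from the fit of 16 arrays for each measured gene in 3 comparisons (Ezh1-het versus control, double knockout versus control, double knockout versus Ezh1-het; horizontal scales differ, genes ordered by the third). Filled points mark genes whose 4 and 4 arrays do not overlap and asterisks an adjusted p under 0.05: 16 points are filled on the lower side at the right and 0 in the middle, and the SE of genes such as Slc12a1 is 0.65.

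Other genes of these segments were taken from a list of 44, of which 42 were measured. Against control, 4 were called higher in Ezh1-het, 2 in double knockout and 1 in Ezh2-KO kidneys, and 0 were called lower, where 5.91%, 3.71% and 2.40% of all genes were called higher. Cldn3, a tight-junction claudin of distal segments, rose by 1.78 in Ezh1-het (SE 0.29, limma adjusted p = 0.00227) and by 1.59 in double knockout kidneys (SE 0.29, adjusted p = 0.00365). Prlr, the prolactin receptor, rose by 1.33 and Kcna1, a potassium channel, by 0.69 in Ezh1-het kidneys (limma adjusted p = 0.0363 and 0.00841). Vdr, the vitamin D receptor, rose by 0.77 in Ezh2-KO (limma adjusted p = 0.00841) and by 0.50 in Ezh1-het kidneys (limma adjusted p = 0.0406). Vdr was lower in double knockout than in Ezh2-KO kidneys, by -0.79 (limma adjusted p = 0.00973), the only call of this list among the comparisons between deletion groups. Cldn11 rose by 0.82 in double knockout kidneys (limma adjusted p = 0.0187). The median of the 42 between double knockout and Ezh1-het was -0.20, against -0.58 for the members. In double knockout against control kidneys it was -0.02 with 19 of 42 higher, against -0.24 with 3 of 29 higher for the members. Of 16 patterning and transcription factors of nephron segments, such as Pou3f3 and Irx1, 0 were called by limma in each of the 6 comparisons. Their median between double knockout and Ezh1-het was -0.58, and 6 had an unadjusted p under 0.05 (13.7% of all genes). Of 27 measured genes of mitochondrial oxidation, which the estrogen-related receptors control, 0 were called by limma in each of the 6 comparisons. Between double knockout and Ezh1-het their median was -0.17 with 1 of 27 higher, and 8 had an unadjusted p under 0.05 (13.7% of all genes).

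Lists of markers of other cell types differed in whether they were low on control 3 and Ezh2-KO 1, the arrays low for the members. The 12 proximal tubule markers, 12 of 12 measured, had a mean of -1.86 on control 3 and -1.89 on Ezh2-KO 1. Their mean ranged over -1.86 to 0.45 in control and -1.89 to 0.07 in Ezh2-KO kidneys, and 0 of 12 were higher in double knockout than in Ezh1-het (median difference -1.64). In that comparison 11 had an unadjusted p under 0.05 (13.7% of all genes) and 0 were called by limma. Of 9 podocyte markers, 5 rose in Ezh1-het against control kidneys (Nphs1, Podxl and Ptpro among them; 5.91% of all genes were called higher), with a list mean of 0.33 to 0.71 in Ezh1-het and -0.23 to 0.06 in double knockout kidneys. Of 10 nephron progenitor markers, 2 fell in the Ezh2-KO group, 3 in Ezh1-het and 2 in double knockout kidneys against control, Cited1 and Crym in each (0.677%, 1.90% and 0.914% of all genes were called lower), and the list mean was highest on control 3 (0.46) and lowest on Ezh1-het 1 (-0.50). The collecting duct list, which also holds Calb1, had 12 of 13 markers measured and 0 called by limma. In Ezh1-het against control 5 of its markers had an unadjusted p under 0.05 (25.4% of all genes). The mean of this list was -1.05 on control 3 and -0.35 to -0.05 in double knockout kidneys, inside the control range of -1.05 to -0.04. Of 12 stroma markers, 2, 1 and 2 rose in those groups, Meis1 in each (2.40%, 5.91% and 3.71% of all genes were called higher), with the list mean between -0.65 and 0.87 over all arrays. Of 7 measured macrophage markers (of 8) 1 fell in each group with the deletion, Cd74, and 0 of 6 endothelial (of 8) and 0 of 5 erythroid markers (of 8) were called by limma. Between double knockout and Ezh1-het 1 endothelial and 4 erythroid markers had an unadjusted p under 0.05 (13.7% of all genes). The erythroid mean was -1.73 to -0.16 in double knockout and -0.36 to 0.20 in control kidneys. The part of these cell types in the members' values was not tested.

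**Figure D4:**
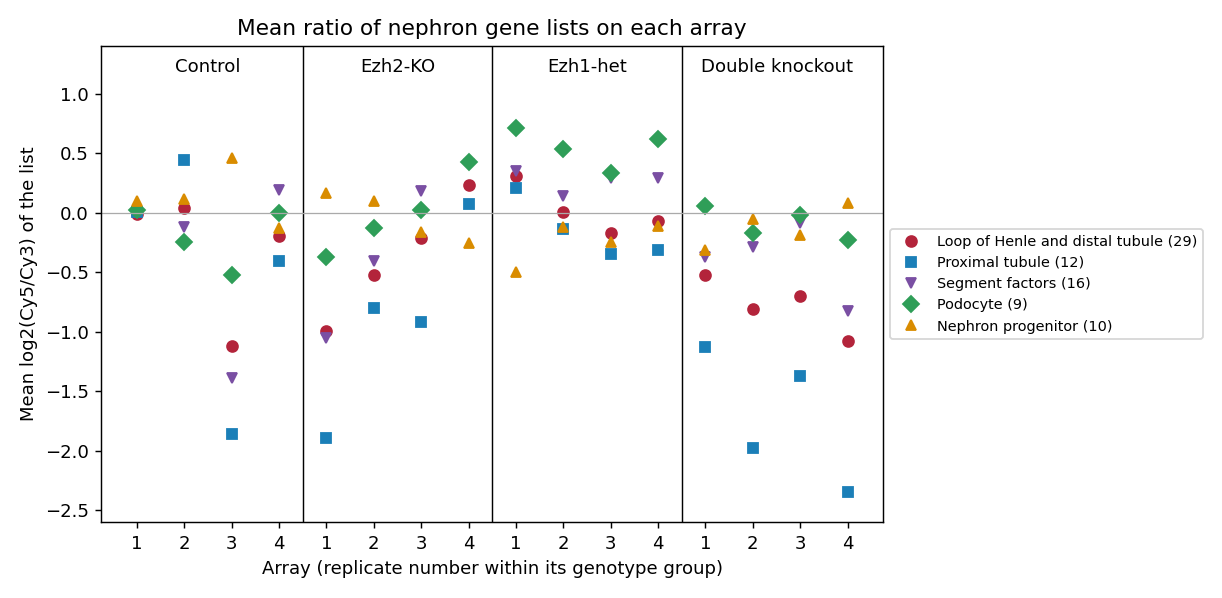
Mean log2(Cy5/Cy3) of 5 gene lists on each of the 16 arrays (measured genes in brackets; replicate numbers carry no order). The proximal tubule mean and the loop of Henle and distal tubule mean are both low on control 3 (-1.86 and -1.12), on Ezh2-KO 1 (-1.89 and -0.99) and on the double knockout arrays, while the nephron progenitor mean is highest on control 3 (0.46).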

How the data were processed

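The members and gene lists were chosen with earlier results of these data known. The deposited intensity columns hold median spot and background signals, written per the file headers by Agilent Feature Extraction 10.7.3.1, and the authors' value table held the software's log10 ratio of Cy5 over Cy3. Here intensities were corrected with normexp (offset 50) and normalised by loess within arrays in limma 3.58.1 under R 4.3.3, with control and outlier-flagged spots at weight 0. Spots of 1 probe were averaged, and the brightest probe that passed the filter stood for its gene. Gene names came from RefSeq (29339 of 29638 RefSeq mRNA probes matched). No spot was saturated, and the share of probes well above background was 53.1% to 63.4% per array.

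All groups were fitted together with lmFit and eBayes, two-sided, with no covariate, and adjusted by Benjamini-Hochberg over 15646 genes (threshold 0.05). The design calls the 4 samples of a group biological replicates. A bound ("at least") sets the bright group's Cy5 level, after Aquantile scaling, against the higher of the dimmest detected signal and the probe's own, and the smaller of that fold and the ratio's is printed. It is open to dye bias and carries no sampling error. Full values by array were given for members called in any comparison and for Umod, Slc12a1, Slc12a3 and Kcnj1. Alternatives covered normalisation, filters, probes, blocks, weights, slides and left-out arrays. Some genes and the results that need them are not reported here.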

Additional observations from a re-analysis of the deposited data

Results flagged for a closer look

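In 7 of 116 groups of 4 arrays (29 members in 4 groups), 1 array stood apart from the other 3 by Dixon's criterion, which chance alone meets in about 1 in 20 groups. Control 3 stood apart for 3 members: Kcnj10 at -1.53, Cldn19 at -0.81 and Sostdc1 at -2.69. Stk39 stood apart on Ezh1-het 3 (0.020, the lowest of its group) and on double knockout 2 (0.41, the highest). Nos1 was highest on double knockout 2 (-0.024). Esrrg was highest on Ezh1-het 1 (1.03).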

How the results depend on the processing

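The count of members called depended on how the arrays were weighted or selected more than on blocks, probe choice or variance model. A count printed below without a share of all genes beside it describes the processing and is not a result about the members. With median centring in place of loess, the median of all genes against control moved to 0.41 (Ezh2-KO), 0.44 (Ezh1-het) and 0.38 (double knockout), and members called were 3, 8 (7 higher, 1 lower, against 1 and 1 with loess; 49.5% of all genes higher) and 2, with 0 between double knockout and Ezh1-het; the Ezh1-het median became 0.60. With the software's own ratio, 1 member was called for Ezh1-het against control, 1 for double knockout against Ezh2-KO and 0 for double knockout against Ezh1-het. With only probes above background on all 16 arrays, 0 were called for Ezh1-het and for double knockout against control and for double knockout against Ezh1-het, where 10 of 19 were without overlap; Cldn16 and Nos1 are not among those tested then. With array weights, 1 was called for Ezh2-KO and 8 for double knockout against control, 2 for Ezh1-het and 4 for double knockout against Ezh2-KO, and 10 for double knockout against Ezh1-het (lower calls over all genes were 5.01% for double knockout against control and 4.24% against Ezh1-het). On slide 1 alone, the counts were 3, 0 and 4 for Ezh2-KO, Ezh1-het and double knockout against control, 13 for Ezh1-het against Ezh2-KO and 3 for double knockout against Ezh1-het (over all genes 0.339% and 0.569% were called lower for Ezh2-KO and double knockout against control, and 4.38% higher for Ezh1-het against Ezh2-KO), and on slide 2 alone 0 for Ezh1-het and double knockout against control and for double knockout against Ezh1-het. The Ezh2-KO median was -0.61 on slide 1 and 0.53 on slide 2. With only the groups compared, 0 were called for double knockout against control and 16 against Ezh1-het. Without controls 2 and 3, 0 were called for Ezh1-het against control. Without control 3 and Ezh2-KO 1, chosen after seeing the data, 10 were called for double knockout against control (median -0.56) and 3 against Ezh2-KO. Leaving out each array in turn gave 1 to 3 members for Ezh1-het and 0 to 7 for double knockout against control (medians -0.56 to -0.21; 7 and -0.56 are without control 3), 0 in each case for double knockout against Ezh1-het, and 16 to 19 without overlap there (11% to 13% of all genes). The Ezh1-het median against control was then 0.03 (without control 3) to 0.32. The causes were not tested. No called member changed sign.

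Same-numbered arrays did not consistently deviate together (correlations -0.48 to 0.51, over 0.1 in 8 of 24 pairs), so replicate numbers are not treated as pairs. Between Ezh1-het and double knockout the correlations were 0.51, -0.01, -0.08 and 0.44 for replicates 1 to 4. The replicate block left 0 members called between double knockout and Ezh1-het (Cldn16 adjusted p = 0.0841) and changed no other count of members called by more than 1.5 times. Signal limits Cldn16, Slc12a3, Casr and Ptger3, which were not well above background on any double knockout array.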
